A study of Mus musculus with 25 samples.

Results

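The genes described here belong to families whose proteins bring vesicles to membranes and fuse them, as in release at the plasma membrane. They were taken by name, as every gene symbol of the synaptotagmin, synaptotagmin-like, syntaxin, syntaxin-binding, VAMP, SNAP, complexin, *Rab3*, *Rab27*, *Unc13*, *Rims* and *Cadps* families that was listed in the deposited expression tables. The families were chosen with earlier results of these data known. This gave 72 of the 15768 genes listed in either table. The table of the long-term experiment held 72 of them among 15315 genes, and that of the short-term experiment held 66 among 14007. The 6 that were listed only in the long-term table were *Stx19*, *Syt6*, *Syt15*, *Sytl4*, *Sytl5* and *Vamp7*. All of the listed members passed the filter on low reads, so that 72 and 66 genes were tested. Not every member is a gene of release at the plasma membrane, for example *Vamp3*, a VAMP of recycling endosomes. Counts and medians of members cover all of them.

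Regulated exocytosis is the route by which pituitary endocrine cells release peptide hormones from dense-core granules. A SNARE protein on the vesicle, a VAMP, pairs with a syntaxin and a SNAP protein on the plasma membrane, and syntaxin-binding proteins guide the assembly of this complex. Synaptotagmins sense calcium, complexins clamp and assist the assembled complex, *Rab3* and *Rab27* GTPases with synaptotagmin-like effectors bring vesicles to the membrane, and *Unc13*, *Cadps* and *Rims* proteins prime them for fusion.

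The study examined whether pituitary tumors that form after knock-down of RB still need that knock-down, with RNA-seq of whole pituitaries. All mice were sh*Rb* animals that carried the *Rosa26* rtTA and *Col1a1* shRb5-4 transgenes, in which doxycycline (dox) switches on a GFP-linked shRNA against *Rb1*. In the long-term experiment, 6w+dox mice had received dox for 6 weeks (3 females), 12w+dox mice for 12 weeks (2 females and 2 males), and 12w-res mice for 6 weeks followed by 6 weeks without dox (3 females and 2 males). In the short-term experiment, mice had received dox for 16 weeks and were analysed on dox (16w +dox, 3 males) or after 1, 3 or 5 days without it (1d -dox, 4 females; 3d -dox, 3 males; 5d -dox, 3 females). The transgene came from 1 embryonic stem cell clone with 1 shRNA, and rtTA was driven from the broadly active *Rosa26* promoter, so that the knock-down was not limited to endocrine cells. Mice without the transgene or never given dox were not analysed here. In the short-term experiment the 1d -dox and 5d -dox mice differed from the 16w +dox mice in sex as well as in time off dox, and these 2 differences cannot be told apart.

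The libraries held 19066053 to 28968476 reads on genes in the long-term experiment, which was prepared by poly(A) enrichment, and 9573101 to 13036900 in the short-term experiment, which was prepared by rRNA depletion. Values are FPM, the number of reads of a gene scaled by a size factor for its library, and were compared only within an experiment. *Rb1*, the target of the shRNA, averaged 18.2 FPM in the 5 12w-res mice (SD 1.66), against 3.21 in the 4 12w+dox mice (SD 0.70) and 3.16 in the 3 6w+dox mice (SD 1.70). Its log2 fold change for 12w-res against 12w+dox was 2.35 ± 0.22 (SE; limma, adjusted p = 3.00e-06). In the short-term experiment *GFP* was at 1247 FPM on dox and 11.7 FPM after 5 days without it, while *Rb1* was at 4.19 ± 0.709 and 5.12 ± 0.239 FPM (SD, n = 3 each) and did not pass the adjusted p (0.53). The pituitary hormone precursor *Pomc* ranged from 93231 to 573321 FPM in the long-term libraries. It took 3338567 to 6676275 reads in the 12w+dox libraries, which held 22695279 to 28968476 reads on genes. In the 12w-res libraries it took 8568294 to 10879154, where these held 21830031 to 26505869. Total-read scaling counts the reads of *Pomc* in the total of a library, and their part in the shift below was not tested. With the libraries scaled to their total reads instead of by size factors, the median of all genes moved to -0.61 on the log2 scale for 12w-res against 12w+dox, 0.29 for 12w+dox against 6w+dox and -0.33 for 12w-res against 6w+dox, so that the called genes shifted from 955 higher and 772 lower to 244 higher and 3364 lower in the first of these. Where this scaling turned the direction of a value printed below for these 3 comparisons, the turned value or the gene is given beside it. This was not done for *Stx4a* or for values split by sex.

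A gene is said to be called where limma gave an adjusted p under 0.05 over all genes and an absolute log2 fold change over 1 on the scale of log2(FPM + 0.5). Folds given for members are fitted on that scale, where the added 0.5 shrinks the differences of rare genes. Each sample was 1 mouse, and p-values are set against the spread between the mice of these groups. In limma the variance of a gene is also drawn toward a prior that follows the trend over genes by level. Since whole pituitaries were sequenced, fewer cells of a type and less RNA per cell cannot be told apart.

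The order of the members by level was set per kb of the longest annotated transcript, for the 71 members with a known length. At 12w+dox the highest was *Syt1*, the fast calcium sensor, at 211 ± 36.6 FPM per kb (SD, n = 4), followed by the vesicle SNARE *Vamp2* at 167 ± 9.98 and the plasma membrane SNARE *Snap25* at 141 ± 3.20. The ranges of *Syt1* and *Vamp2* overlapped, whereas that of *Snap25* lay below both. *Rab27a* and *Syt4* came next at 113 ± 13.4 and 101 ± 9.80 FPM per kb, with overlapping ranges. In 12w-res the order was *Vamp2* at 162 ± 17.4, *Syt4* at 142 ± 6.85, *Snap25* at 135 ± 2.88 and *Syt1* at 125 ± 9.81 FPM per kb (n = 5), and each of these overlapped the next. *Cplx2*, a complexin, moved from rank 6 of 71 at 12w+dox to rank 16 in 12w-res. The lowest member in 12w-res was *Syt2*, at 0.002 FPM per kb.

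The comparison of 12w-res with 12w+dox asked what differed in pituitaries in which RB had been allowed to return for 6 weeks from those kept on dox to the same time. *Cplx2* fell by 1.53 on the log2 scale, from a mean of 389 to 138 FPM, and also lower were *Cadps2*, *Sytl2*, *Unc13c*, *Rims3*, *Syt16* and *Syt2*. *Rab27b*, a GTPase that docks granules, rose 2.31-fold and *Rab3c*, a GTPase of the vesicle surface, rose 2.04-fold. In all, 9 of 72 members were called (12.5%), 2 higher and 7 lower, where 11.3% of all 15315 genes were called. With total-read scaling, 25 members were called, 0 higher and 25 lower, where 244 of all genes were called higher and 3364 lower. The 7 lower members were 9.72% of the members, against 5.04% of all genes called lower, and the 2 higher members were 2.78%, against 6.24%. By adjusted p alone, 14 members were higher and 19 lower (19.4% and 26.4% of members, against 19.4% and 18.3% of all genes), and 6 of the 14 turned negative with total-read scaling (*Rab3a*, *Rab3d*, *Snap47*, *Stx8*, *Syt4* and *Vamp8*). The 2 groups did not overlap for 28 members (38.9%, against 34.5% of all genes). The median log2 fold change of the members was -0.06 and that of all genes -0.00, while the median absolute change was 0.50 for members and 0.36 for all genes.

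**Figure D1:**
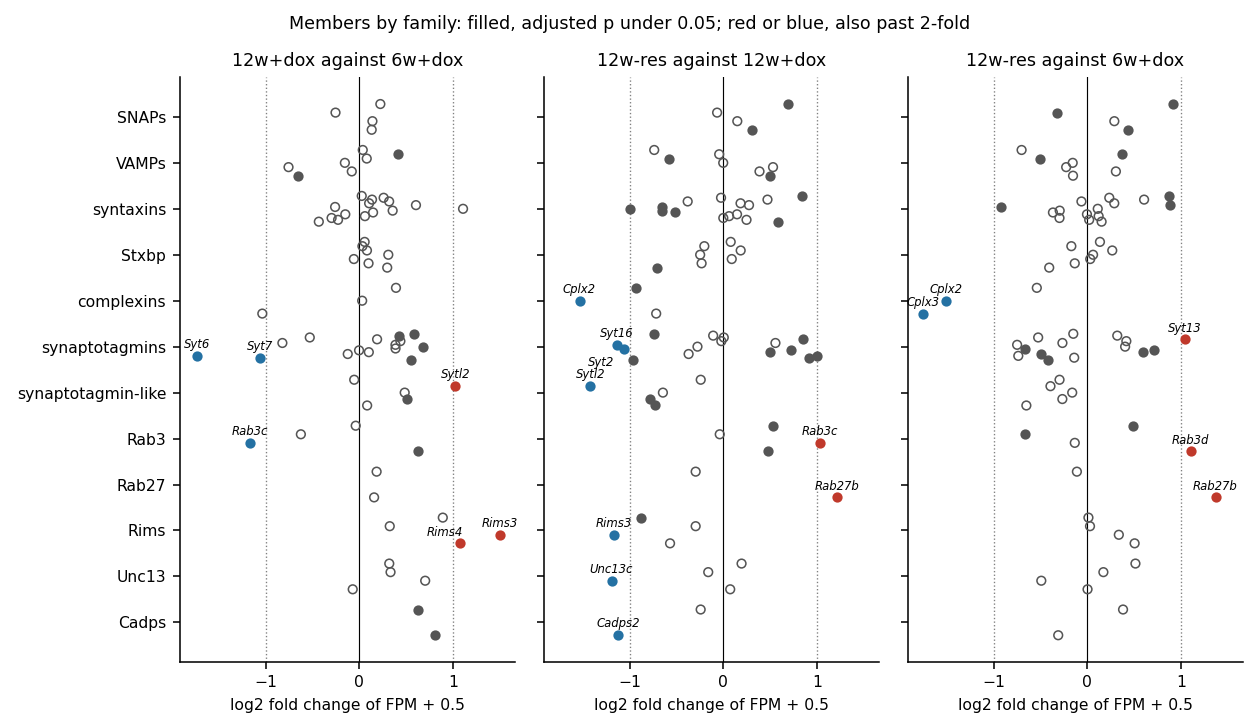
Log2 fold change of each member (x axis) in the 3 long-term comparisons, by gene family (y axis). Filled points passed an adjusted p under 0.05 (limma), red and blue points also passed an absolute log2 fold change of 1 (dotted lines) and are named. Called members fell in several families, with 7 lower and 2 higher for 12w-res against 12w+dox.

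Among the SNARE genes of the fusion complex, the most abundant members did not pass the test in this comparison. *Snap25* was at 301, 288, 301 and 302 FPM in the 12w+dox mice and at 286, 294, 285, 282 and 277 FPM in the 12w-res mice. These 2 groups overlapped, and the log2 fold change was -0.07 with a 95% interval of -0.26 to 0.13. *Vamp2* had a log2 fold change of -0.04 (95% interval -0.29 to 0.20). Neither of these intervals reached 1 in either direction. With total-read scaling the log2 fold changes of *Snap25* and *Vamp2* were -0.72 and -0.70. Syntaxins of the plasma membrane that were lower included *Stx1a* by 0.66 on the log2 scale (adjusted p = 0.0049, limma), *Stx2* by 0.65 (adjusted p = 0.0023) and *Stx3* by 0.51 (adjusted p = 0.013). *Stx4a*, another plasma membrane syntaxin, was at 0.15 (adjusted p = 0.27), and its value with total-read scaling is not reported here. *Snap23*, the broadly expressed relative of *Snap25*, was higher, at 9.61 to 12.8 FPM in 12w+dox and 16.2 to 20.4 FPM in 12w-res, without overlap (log2 fold change 0.69, adjusted p = 0.046). With total-read scaling its log2 fold change was 0.05. *Vamp3*, a VAMP of recycling endosomes, was lower by 0.58 (adjusted p = 0.0029), and *Vamp8*, a VAMP of endosomes and of regulated secretion in several glands, was higher by 0.50 (adjusted p = 0.025), which turned to -0.15 with total-read scaling. limma called no SNAP, VAMP, syntaxin or syntaxin-binding member, whereas edgeR and DESeq2 each called the syntaxin *Stx11* higher. It was rare, at 0.417 FPM on average in 12w+dox and 1.18 FPM in 12w-res (limma log2 fold change 0.84, adjusted p = 0.012). *Stxbp6* was the only syntaxin-binding member of 7 to pass the adjusted p, at -0.70, where 37.8% of all genes passed in either direction.

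Complexins were the family with the lowest median change, -0.93 over 3 members. *Cplx2* was at 378, 399, 359 and 422 FPM in the 12w+dox mice and at 205, 121, 143, 113 and 107 FPM in the 12w-res mice. The groups lay far apart, and the lowest 12w+dox mouse was above the highest 12w-res mouse. The log2 fold change was -1.53 ± 0.18 (SE; limma, adjusted p = 2.36e-05; exact two-sided permutation p = 0.0079, the smallest that 5 against 4 mice allow). *Cplx1*, the complexin best known from central synapses, was far less abundant, at 4.50 to 6.62 FPM at 12w+dox and 1.40 to 5.80 FPM in 12w-res, and its difference of -0.93 (adjusted p = 0.032) did not reach the fold threshold. *Cplx2* made up 96.1 ± 0.70% of the summed complexin level per kb at 12w+dox and 93.8 ± 3.95% in 12w-res, while the sum went from 82.2 ± 5.34 to 29.6 ± 7.69 FPM per kb.

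The synaptotagmins, the calcium sensors, moved in both directions. Of 15 members, 4 were lower and 5 higher by adjusted p, where 18.3% of all genes were lower and 19.4% higher. *Syt1* was at 890, 1221, 850 and 1105 FPM in the 12w+dox mice and at 595, 632, 621, 646 and 527 FPM in the 12w-res mice, all below the lowest of the former. Its log2 fold change was -0.74 ± 0.16 (SE; limma, adjusted p = 0.0029). *Syt9*, a sensor of dense-core granules, was at 38.2 to 43.2 FPM in 12w+dox and at 19.1 to 24.2 FPM in 12w-res, and at -0.97 ± 0.11 (adjusted p = 1.16e-05) it lay just short of the fold threshold. *Syt16*, a synaptotagmin that lacks the calcium-binding residues, was called at -1.13 ± 0.26 (adjusted p = 0.0035), with 6.60 to 12.9 FPM at 12w+dox and 1.82 to 5.07 FPM in 12w-res. It was not called without 12w+dox replicate 3 or without 12w-res replicate 5. *Syt2*, the relative of *Syt1* best known from fast synapses, was rare throughout, at 0.279 to 0.904 FPM at 12w+dox, and 4 of 5 12w-res libraries held no read of it. Against a floor of 3 reads per library, it was at least 3.68-fold lower in 12w-res, and without 12w+dox replicate 2 it was not called.

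Other synaptotagmins were higher in 12w-res. *Syt13*, which lacks calcium binding, was at 136, 166, 139 and 167 FPM in the 12w+dox mice and at 285, 266, 251, 299 and 267 FPM in the 12w-res mice. The groups did not overlap (log2 fold change 0.85 ± 0.10, SE; limma, adjusted p = 2.50e-05). *Syt4*, found on secretory granules of endocrine cells and neurons, was at 335 to 415 FPM in 12w+dox and at 522 to 583 FPM in 12w-res (0.50 ± 0.12, adjusted p = 0.0048), and its direction turned to -0.16 with total-read scaling. *Syt7*, a slow sensor of high calcium affinity, was at 42.2 to 80.3 FPM in 12w+dox and at 93.6 to 129 FPM in 12w-res (0.92 ± 0.20, adjusted p = 0.0025). *Syt3* and *Syt6* were also higher, by 0.72 and 0.99. With total-read scaling the log2 fold changes of *Syt13*, *Syt7*, *Syt3* and *Syt6* were 0.19, 0.26, 0.08 and 0.60. The summed synaptotagmin level per kb was 419 to 533 FPM in the 12w+dox mice and 422 to 469 FPM in the 12w-res mice, which overlapped, while its makeup differed. *Syt1* made up 42.1 to 47.6% of the sum in the 12w+dox mice and 25.9 to 29.6% in the 12w-res mice. *Syt4* went from 21.5 ± 1.91% to 31.8 ± 1.33%, and *Syt13* from 8.59 ± 0.31% to 16.3 ± 0.88%. The ranges of these 3 shares did not overlap between the groups, and shares do not depend on the scaling of the library.

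**Figure D2:**
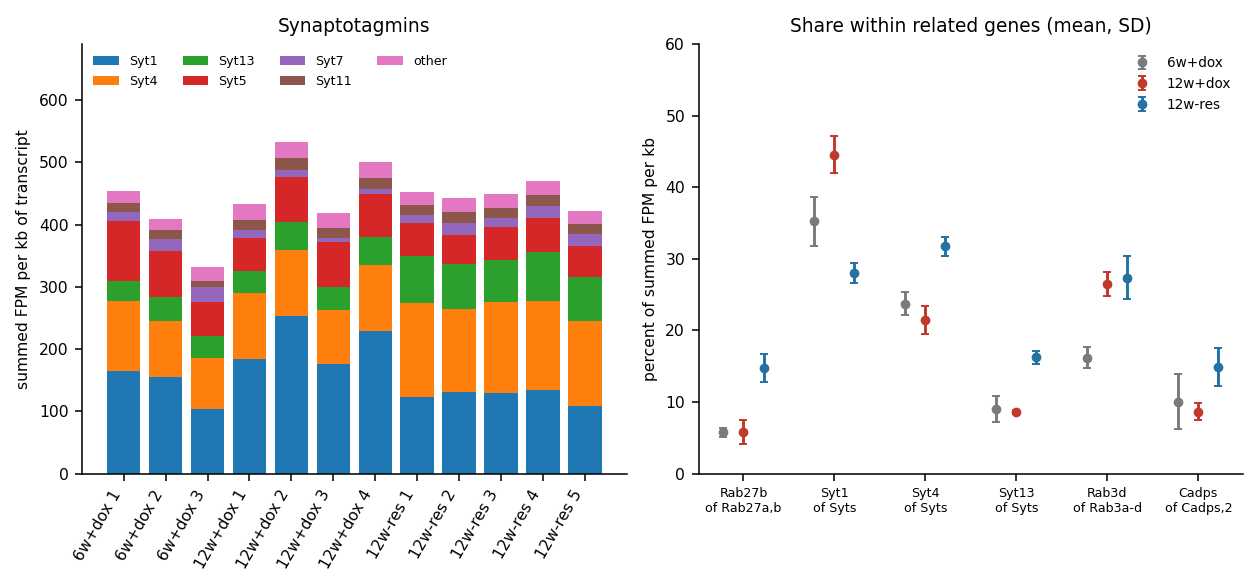
Left, the level per kb of transcript of each synaptotagmin (y axis), stacked for each pituitary of the long-term experiment (x axis). Right, the share of 1 gene in the summed level per kb of its relatives (y axis; mean and SD over 3, 4 and 5 mice). The *Syt1* share is lowest and the *Syt4*, *Syt13* and *Rab27b* shares highest in 12w-res.

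Of the GTPases that bring vesicles to the membrane, *Rab27b* and 3 of the 4 *Rab3* genes were higher by adjusted p and none was lower. By the same rule 19.4% of all genes were higher and 18.3% lower. *Rab27b* was at 57.1, 45.8, 36.9 and 49.3 FPM in the 12w+dox mice and at 106, 111, 128, 102 and 98.2 FPM in the 12w-res mice. Every 12w-res mouse was above every 12w+dox mouse (log2 fold change 1.21 ± 0.14, SE; limma, adjusted p = 1.61e-05; exact permutation p = 0.0079). With total-read scaling the change was 0.56 and the gene was not called. *Rab27a*, its more abundant relative, was at -0.30 ± 0.14 (adjusted p = 0.11), and the share of *Rab27b* in the summed level per kb of both went from 5.84 ± 1.65% to 14.8 ± 1.96%. *Rab3c* was at 35.3, 15.8, 16.0 and 24.2 FPM in 12w+dox and at 42.0 to 51.3 FPM in 12w-res (1.03 ± 0.19, adjusted p = 0.00089). It was just past the fold threshold, and was not called without 12w+dox replicate 2, without 12w+dox replicate 3 or without 12w-res replicate 5, nor by edgeR or DESeq2. *Rab3a*, the main *Rab3* of neuroendocrine cells, and *Rab3d*, known from exocrine granules, were higher by 0.52 and 0.47 (adjusted p = 0.0024 and 0.032), and with total-read scaling they turned to -0.13 and -0.18.

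Of the 5 synaptotagmin-like proteins, effectors that bind *Rab27* on the granule, 3 were lower by adjusted p and none higher. Over all genes 18.3% were lower and 19.4% higher. *Sytl2* was at 5.27, 9.47, 11.6 and 16.1 FPM in the 12w+dox mice and at 3.48, 3.59, 5.01, 2.72 and 2.54 FPM in the 12w-res mice. The spread at 12w+dox was wide, and its lowest mouse lay just above the highest 12w-res mouse (log2 fold change -1.42 ± 0.29, SE; limma, adjusted p = 0.0016). In females only, the change was -1.01 and the gene was not called. *Sytl4*, also known as granuphilin, was much more abundant, at 208 to 244 FPM in 12w+dox and 113 to 150 FPM in 12w-res (-0.78 ± 0.12, adjusted p = 0.00029). *Sytl1* was at -0.24 (adjusted p = 0.17).

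Of the 10 *Unc13*, *Rims* and *Cadps* genes of vesicle priming, 4 were lower by adjusted p and none higher. Among all genes 18.3% were lower and 19.4% higher. *Cadps2*, which primes dense-core vesicles, was at 168, 197, 191 and 231 FPM in the 12w+dox mice and at 93.2, 91.7, 96.3, 86.1 and 81.3 FPM in the 12w-res mice. All 12w-res mice were close together and well below the 12w+dox mice (log2 fold change -1.12 ± 0.12, SE; limma, adjusted p = 8.73e-06; exact permutation p = 0.0079). Its relative *Cadps* was at -0.24 (95% interval -0.61 to 0.12). *Rims3*, a short RIM protein, was at 9.21, 10.6, 10.9 and 13.1 FPM in 12w+dox and at 3.59 to 5.93 FPM in 12w-res (-1.16 ± 0.23, adjusted p = 0.0015), while *Rims2*, the most abundant RIM, was at -0.30 (adjusted p = 0.085). *Unc13c* was at 2.06 to 6.76 FPM in 12w+dox and at 0.774 to 2.44 FPM in 12w-res, with overlapping groups (-1.19 ± 0.30, adjusted p = 0.0071), and was not called without 12w+dox replicate 4. *Unc13a*, the most abundant Munc13, was at 0.19 (95% interval -0.31 to 0.70), and at -0.46 with total-read scaling.

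**Figure D3:**
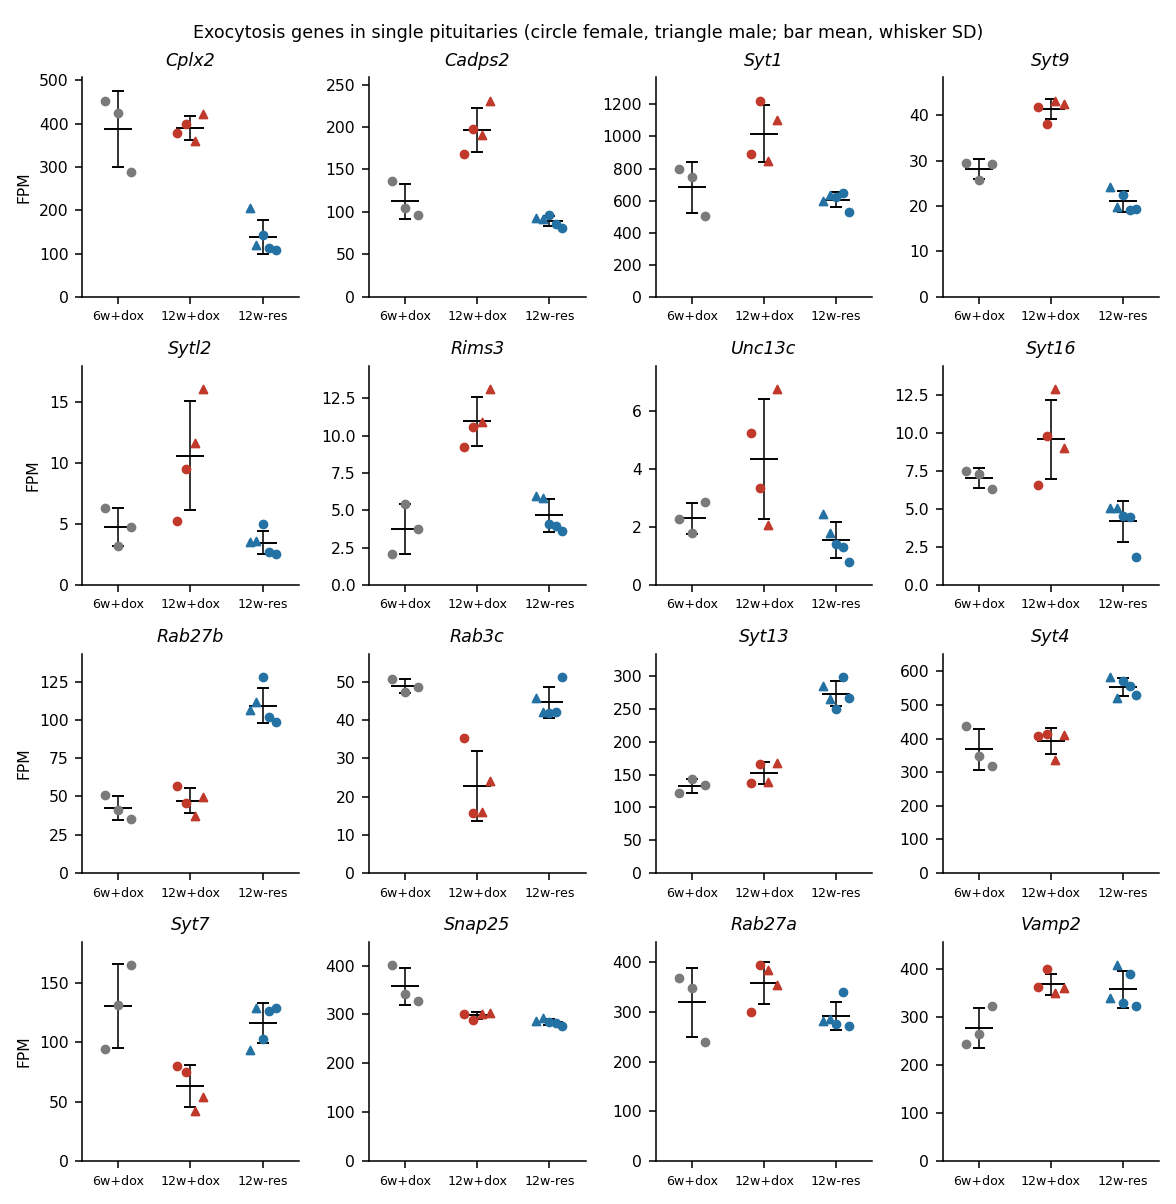
FPM (y axis, from 0) of 16 members in each pituitary of the long-term experiment (x axis, group), with circles for females, triangles for males and the mean with SD in black. *Cplx2*, *Cadps2*, *Syt1* and *Syt9* are lower and *Rab27b*, *Syt13* and *Syt4* higher in every 12w-res mouse than in any 12w+dox mouse, while *Rab27a* and *Vamp2* overlap.

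Markers of other pituitary cells also differed between these groups. The summed level of 5 fibroblast markers was 66.1 to 248 FPM in 12w+dox and 356 to 737 FPM in 12w-res, with 5 of 5 called higher, and that of 4 endothelial markers was 28.8 to 60.2 and 109 to 122 FPM, with 3 of 4 called higher. The 7 macrophage and leukocyte markers summed to 133 to 183 and 230 to 467 FPM, with 1 called higher. The lactotroph hormone *Prl* was at 214 to 4940 and 5659 to 11697 FPM, and the 3 somatotroph markers summed to 934 to 7554 and 6409 to 24797 FPM. The 6 melanotroph and corticotroph markers summed to 99211 to 202243 and 462706 to 584044 FPM. This sum was nearly all *Pomc*, at 93231 to 194592 FPM in 12w+dox and 452682 to 573321 FPM in 12w-res, without overlap. Its log2 fold change was 1.86 with a wide SE of 3.08 (limma, adjusted p = 0.66). This SE also rests on the trended prior variance at so high a level, and is not the spread of *Pomc* between these mice alone. The exact permutation p of *Pomc* was 0.0079. Of the 6 markers 1 was called higher, while the median log2 fold change of the 6 was -0.10 and the lowest -0.45. The proliferation gene *Mki67* fell by 3.34 on the log2 scale (limma, adjusted p = 1.37e-08). The part of these differences in the changes of the members was not tested.

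Promoter sequences are shown for 6 members that changed in the long-term comparisons, to set the genes that fell beside those that rose. Each is the 250 bases before an annotated RefSeq start on GRCm38.p6, read 5′ to 3′ on the strand of the gene: *Cplx2*, chr13:54302306-54302555, plus strand, *Cadps2*, chr6:23839422-23839671, minus strand, *Syt9*, chr7:107370540-107370789, plus strand and *Rims3*, chr4:120854549-120854798, plus strand, which were lower in 12w-res than in 12w+dox, and *Rab3c*, chr13:110280207-110280456, minus strand and *Rab3d*, chr9:21918184-21918433, minus strand, which were higher. With total-read scaling *Rab3d* turned to -0.18 on the log2 scale. Capitals mark the GC box (GGGCGG), the cell cycle homology region CHR (TTTGAA), the core of a cAMP response element (TGACG) and the E2F sites TTTCCCGC and TTTGGCGC, on either strand.
*Cplx2*: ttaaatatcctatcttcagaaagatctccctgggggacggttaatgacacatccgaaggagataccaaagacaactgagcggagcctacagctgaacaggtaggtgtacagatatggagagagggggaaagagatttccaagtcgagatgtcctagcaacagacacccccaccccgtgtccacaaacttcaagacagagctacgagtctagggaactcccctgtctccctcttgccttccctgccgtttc
*Cadps2*: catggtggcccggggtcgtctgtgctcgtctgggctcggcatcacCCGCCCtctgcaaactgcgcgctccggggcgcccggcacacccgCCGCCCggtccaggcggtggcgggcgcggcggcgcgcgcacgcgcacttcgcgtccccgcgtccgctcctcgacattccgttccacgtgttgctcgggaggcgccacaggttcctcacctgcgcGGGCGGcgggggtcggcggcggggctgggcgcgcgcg
*Syt9*: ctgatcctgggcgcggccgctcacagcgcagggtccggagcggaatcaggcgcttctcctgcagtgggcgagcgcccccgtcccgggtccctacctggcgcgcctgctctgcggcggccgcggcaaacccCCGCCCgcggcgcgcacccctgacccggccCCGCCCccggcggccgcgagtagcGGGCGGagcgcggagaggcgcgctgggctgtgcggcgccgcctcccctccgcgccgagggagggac
*Rims3*: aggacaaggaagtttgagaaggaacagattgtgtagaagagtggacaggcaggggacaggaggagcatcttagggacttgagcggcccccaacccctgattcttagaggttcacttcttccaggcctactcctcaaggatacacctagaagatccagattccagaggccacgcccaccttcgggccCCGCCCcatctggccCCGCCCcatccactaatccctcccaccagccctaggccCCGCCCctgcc
*Rab3c*: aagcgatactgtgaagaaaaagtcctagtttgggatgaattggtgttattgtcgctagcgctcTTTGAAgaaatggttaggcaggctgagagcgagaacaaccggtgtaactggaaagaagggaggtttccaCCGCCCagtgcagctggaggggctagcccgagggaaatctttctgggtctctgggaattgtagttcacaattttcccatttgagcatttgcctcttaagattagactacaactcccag
*Rab3d*: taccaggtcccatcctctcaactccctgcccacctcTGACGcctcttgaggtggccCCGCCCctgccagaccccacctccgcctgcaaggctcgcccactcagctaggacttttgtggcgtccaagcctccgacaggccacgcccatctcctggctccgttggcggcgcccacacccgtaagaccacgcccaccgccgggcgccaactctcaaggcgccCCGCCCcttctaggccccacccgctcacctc
The RefSeq table held promoters of 55 of the 72 members. In these windows 0 of 55 members held either E2F site, against 1.35% of 27025 promoters. A CHR was in 9 of 55 (16.4%, against 16.3% of all), the core of a cAMP response element in 13 of 55 (23.6%, against 17.9%) and a GC box in 36 of 55 (65.5%, against 32.9%). Of the 6 shown, *Cplx2* held none of these motifs, *Cadps2*, *Syt9* and *Rims3* held 3 GC boxes each, *Rab3c* a CHR and a GC box, and *Rab3d* 2 GC boxes and the core of a cAMP response element. Such matches describe the letters of the window, and a window without a match lacks only these letters. The annotated spans of *Cplx2*, *Cadps2*, *Syt9* and *Rab3c* begin upstream of their windows, so the outermost starts of these genes are not covered. The median GC content was 60.4% for the members and 52% for all promoters.

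The comparison of 12w+dox with 6w+dox followed the pituitaries between 6 and 12 weeks of knock-down. *Rims3* rose 2.83-fold, *Rims4*, another short RIM, rose 2.10-fold and *Sytl2* rose 2.03-fold, while *Syt6*, *Rab3c* and *Syt7* fell, from means of 3.03, 49.0 and 130 FPM at 6w+dox to 0.559, 22.8 and 62.8 FPM. In all, 6 of 72 members were called (8.33%), where 7.2% of all genes were called. The 3 members in each direction were 4.17% of the members, against 3.15% of all genes called higher and 4.04% called lower. With total-read scaling, 6 members were called higher and 1 lower, where 1058 of all genes were called higher and 317 lower. By adjusted p alone, 12 members were higher and 4 lower (16.7% and 5.56% of members, against 10.4% and 12% of all genes). The groups did not overlap for 17 members (23.6%, against 25.2%). Of the 6w+dox mice none was male, and with sex in the fit 3 members were called (*Rims3*, *Rab3c* and *Syt6*), while in females only *Rims3* alone was called, with fewer mice. Without 6w+dox replicate 2, 3 members were called (*Rims3*, *Rab3c* and *Syt7*).

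*Rims3* was at 2.10, 5.43 and 3.73 FPM in the 6w+dox mice and 9.21 to 13.1 FPM in the 12w+dox mice, without overlap (limma, adjusted p = 0.0021). *Rims4* went from 1.40, 0.891 and 2.61 FPM to 3.18 to 4.52 FPM (1.07 ± 0.32, adjusted p = 0.027). *Sytl2* went from 3.21 to 6.29 FPM to 5.27 to 16.1 FPM, and its groups overlapped (1.02 ± 0.33, adjusted p = 0.037). *Rims4* and *Sytl2* were not called with sex in the fit, and each was lost when any of several single mice was left out, *Rims4* without 6w+dox replicate 1 or 2 or 12w+dox replicate 1 or 4, and *Sytl2* without 6w+dox replicate 2 or 12w+dox replicate 2, 3 or 4. *Rab3c* was at 50.9, 47.5 and 48.6 FPM in the 6w+dox mice, close together and above all 12w+dox mice (-1.16 ± 0.22, adjusted p = 0.0028). *Syt7* was at 94.3, 132 and 165 FPM at 6w+dox, above the 42.2 to 80.3 FPM of 12w+dox (-1.06 ± 0.22, adjusted p = 0.0058), and was not called without 6w+dox replicate 3, 12w+dox replicate 3 or 12w+dox replicate 4. *Syt6* went from 1.40, 3.34 and 4.35 FPM to 0.233 to 1.29 FPM (-1.73 ± 0.42, adjusted p = 0.011), and was not called without 6w+dox replicate 2.

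Among the genes that passed the adjusted p below the fold threshold, *Cadps2* was higher by 0.81 (adjusted p = 0.0015), *Cadps* by 0.62, *Syt1* by 0.59, *Syt9* by 0.55, *Sytl4* by 0.51 and *Vamp2* by 0.42, and *Vamp8* was lower by 0.66. *Cplx2* was at 0.03 (95% interval -0.41 to 0.47) and *Snap25* at -0.25 (adjusted p = 0.093), which turned to 0.07 with total-read scaling. Levels of 4 neural lobe markers, which include the hormone genes *Avp* and *Oxt* carried in nerve endings, summed to 44.5 to 130 FPM in the 6w+dox and 4.05 to 13.4 FPM in the 12w+dox mice, with 4 of 4 called lower. The somatotroph markers summed to 45927 to 80250 and 934 to 7554 FPM, with 3 of 3 called lower. *Prl* was also called lower, at -4.32, as were 2 of 2 thyrotroph and 3 of 5 fibroblast markers. So were 1 of 4 endothelial and 1 of 3 stem and folliculostellate markers. Called higher were 2 of 6 melanotroph and corticotroph and 1 of 7 macrophage and leukocyte markers, and 0 of 4 gonadotroph markers were called. The part of these differences in the members' changes was not tested.

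The 2 comparisons share the 12w+dox mice, so the values are given side by side and no overlap is tested. *Cadps2*, *Rims3*, *Syt1*, *Syt9*, *Sytl2* and *Sytl4* were higher by adjusted p at 12w+dox than at 6w+dox and lower in 12w-res than at 12w+dox. *Rab3c*, *Syt6*, *Syt7* and *Vamp8* were lower and then higher. *Rab3d* was higher in both, and no member was lower in both. With total-read scaling *Rab3d* and *Vamp8* turned to -0.18 and -0.15 in the second comparison. *Cplx2* and *Rab27b* differed by adjusted p in the second comparison only, with 0.03 and 0.16 in the first, and whether the 2 changes of a gene differ was not tested.

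The comparison of 12w-res with 6w+dox set the pituitaries 6 weeks after withdrawal beside those at the time of withdrawal. *Rab27b* rose 2.58-fold, *Rab3d* 2.15-fold and *Syt13* 2.05-fold, while *Cplx3*, a complexin of ribbon synapses, and *Cplx2* fell, from means of 3.85 and 388 FPM at 6w+dox to 0.757 and 138 FPM. These 5 of 72 members (6.94%) stood against 11.6% of all genes called, with 4.17% of members against 5.81% of genes called higher and 2.78% against 5.82% called lower. By adjusted p alone 11 members were higher and 9 lower (15.3% and 12.5%, against 17% and 16.8% of all genes), and 20 members did not overlap (27.8%, against 32.7%). Without 6w+dox replicate 2, 8 members were called, with *Snap23*, *Stx19* and *Stx1a* added. With total-read scaling, 1 member was called higher and 4 lower, where 497 of all genes were called higher and 1638 lower. *Rab27b* was at 50.7, 40.8 and 35.4 FPM at 6w+dox and at least 98.2 FPM in 12w-res (log2 fold change 1.37 ± 0.15, SE; limma, adjusted p = 1.37e-05; exact permutation p = 0.018, the smallest that 5 against 3 mice allow). *Syt13* was at 122, 143 and 134 FPM at 6w+dox and 251 to 299 FPM in 12w-res (1.04 ± 0.11, adjusted p = 9.89e-06), and without 6w+dox replicate 1 it was not called. *Rab3d* went from 117.3, 96.1 and 74.8 FPM to 173 to 237 FPM (1.10 ± 0.18, adjusted p = 0.00031), and without 6w+dox replicate 3 it was not called. *Cplx2* went from 452, 423 and 288 FPM to 107 to 205 FPM, without overlap (adjusted p = 6.61e-05). *Cplx3* was rare, at 1.98, 6.73 and 2.86 FPM at 6w+dox and 0.273 to 1.46 FPM in 12w-res (-1.75 ± 0.39, adjusted p = 0.0038). With total-read scaling *Rab3d* and *Syt13* were not called. *Cadps2*, *Syt1*, *Syt7*, *Rab3c*, *Rims3* and *Sytl2* did not pass the adjusted p here, with log2 fold changes of -0.31, -0.15, -0.14, -0.13, 0.34 and -0.39. *Stx1a* was lower by 0.92 (adjusted p = 0.0011), just under the fold threshold. Markers of other cells differed here too. Of the neural lobe markers 4 of 4 were called lower, with sums of 44.5 to 130 FPM at 6w+dox and 6.29 to 10.8 FPM in 12w-res, and of the somatotroph markers 2 of 3, with 45927 to 80250 and 6409 to 24797 FPM. The macrophage and leukocyte markers summed to 86.9 to 120 FPM at 6w+dox and 230 to 467 FPM in 12w-res, with 2 of 7 called higher. Their part in the members' changes was not tested.

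In the short-term experiment, which asked what differs in the first days after withdrawal of dox, no member was called. Against 16w +dox, 0 of 66 members were called at 1d -dox, 3d -dox and 5d -dox, where 0.043%, 0.129% and 0.193% of all 13958 genes tested were called, and 0 of 66 were called between 5d -dox and 1d -dox, where 0.0143% of all genes were called. At an unadjusted p under 0.05, limma gave 11, 21, 7 and 3 members in these 4 comparisons (16.7%, 31.8%, 10.6% and 4.55% of members, against 13.1%, 16.6%, 13.5% and 6.33% of all genes), edgeR gave 10, 20, 10 and 3, and DESeq2 gave 12, 20, 9 and 3. The shares of all genes at an unadjusted p are given for limma only. edgeR called 0 members in each, and DESeq2 called 1, *Sytl2* at 3d -dox, where it called 72 of all genes higher and 32 lower. The largest absolute log2 fold changes were 0.86, 1.28 and 0.77 against 16w +dox and 0.47 for 5d -dox against 1d -dox. The 95% interval of the log2 fold change lay within 1 of 0 in both directions for 61, 59 and 61 of 66 members against 16w +dox.

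The library of 16w +dox replicate 2 stood apart for several members. It was over 1.5 times above both other 16w +dox libraries for 5 of 66 members and over 1.5 times below both for 6, against 2 and 0 for replicate 1 and 0 and 0 for replicate 3. *Rab27b* was at 19.9, 10.3 and 21.4 FPM in 16w +dox replicates 1 to 3, *Sytl2* at 3.67, 1.04 and 3.47 FPM, and *Cadps* at 14.3, 29.2 and 15.6 FPM. Without this library 0 members were called, and 7, 14 and 6 passed an unadjusted p under 0.05 at 1d -dox, 3d -dox and 5d -dox. The shares of all genes without this library are not reported here.

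*Cplx2*, which fell in the long-term experiment, was at 86.8, 56.4 and 80.9 FPM on dox and at 83.1 to 124 FPM at 1d -dox, 101 to 123 FPM at 3d -dox and 71.2 to 131 FPM at 5d -dox. Only the 3d -dox group lay wholly above 16w +dox (log2 fold change 0.63, 95% interval 0.20 to 1.06; limma, adjusted p = 0.16). *Cadps2* was at 66.8 FPM on average on dox and 88.2 FPM at 3d -dox (0.42, adjusted p = 0.17), and at 0.16 after 5 days, which became 0.25 and -0.0048 without 16w +dox replicate 2. *Rab27b* was at 32.0, 19.1 and 20.2 FPM at 5d -dox, overlapping 16w +dox (0.48, 95% interval -0.10 to 1.06), and at 0.16 without 16w +dox replicate 2. *Sytl2* had the largest difference, at 6.18 to 6.98 FPM at 3d -dox (1.28, 95% interval 0.59 to 1.96, adjusted p = 0.089), and 0.81 without 16w +dox replicate 2. *Syt7* was at 20.1 to 21.8 FPM on dox and 27.1 to 30.8 FPM at 5d -dox, without overlap (0.46, adjusted p = 0.094). *Syt5*, a sensor on dense-core granules, and *Rab3a* were at -0.30 and -0.41 at 3d -dox (adjusted p = 0.071 and 0.068), and at -0.15 and -0.26 with total-read scaling. *Snap25* lay within 0.11 of 0 in all 3 comparisons with 16w +dox, or 0.26 at 3d -dox with total-read scaling, and its 95% interval at 5d -dox was -0.19 to 0.19.

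**Figure D4:**
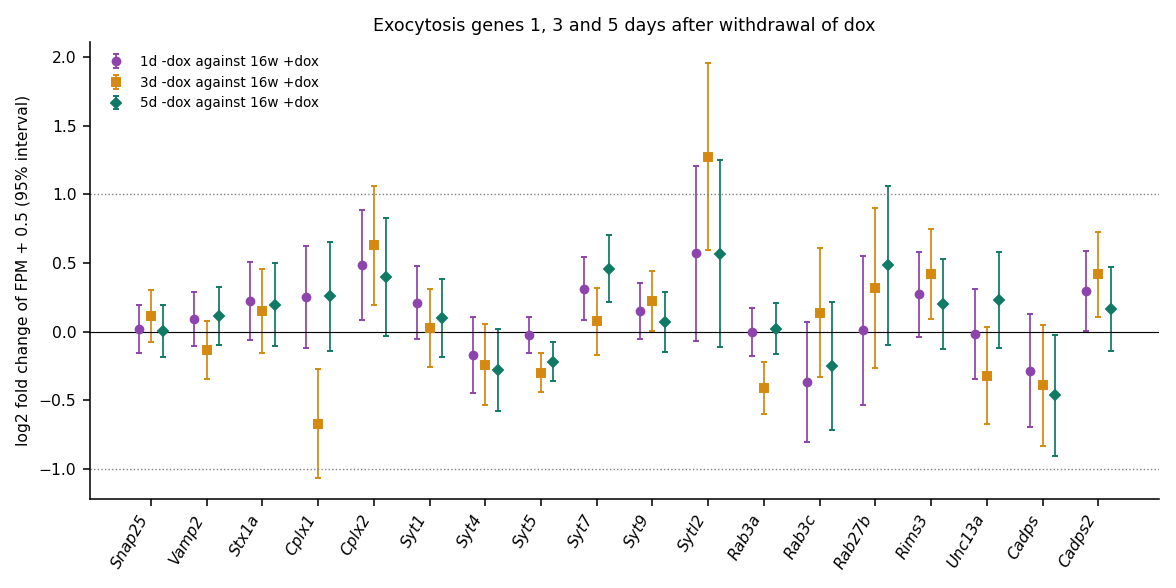
Log2 fold change with 95% interval (y axis) of 18 members (x axis) at 1, 3 and 5 days without dox against 16w +dox, with dotted lines at the fold threshold. No member was called. *Sytl2* at 3d -dox, 1.28, was the only value over 1.

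Other cells also differed in these samples. The 4 gonadotroph markers summed to 12.7 to 33.5 FPM at 16w +dox and 28.9 to 92.3 FPM at 3d -dox, both male, and to 0.825 to 2.48 FPM at 1d -dox and 0.883 to 2.19 FPM at 5d -dox, both female. The median sum of the 5 fibroblast markers was 51.3 and 56.8 FPM in the male 16w +dox and 3d -dox groups and 24.4 and 17.9 FPM in the female 1d -dox and 5d -dox groups. Their part in the members' values was not tested.

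Genes that work beside these families were counted from 5 lists. Of all 15315 genes, 7.2% were called in either direction for 12w+dox against 6w+dox. For 12w-res this was 11.3% against 12w+dox and 11.6% against 6w+dox. In the long-term comparisons, a list of SNARE disassembly factors, other SNAREs and other C2 domain proteins had 27 of 29 genes tested, of which 1 was called higher for 12w+dox against 6w+dox, 2 higher and 1 lower for 12w-res against 12w+dox, and 1 higher for 12w-res against 6w+dox. *Rph3a*, which encodes rabphilin, an effector of *Rab3* and *Rab27*, averaged 9.43 FPM in the 12w+dox mice, above the 1.90 of the 6w+dox and the 1.42 of the 12w-res mice. It rose by 1.88 and then fell by 2.23 on the log2 scale (limma, adjusted p = 0.0068 and 0.00034). *Bet1*, a SNARE of the early secretory pathway, and *Dysf*, a ferlin of membrane repair, rose 2.16-fold and 2.13-fold in 12w-res against 12w+dox, and *Myof*, another ferlin, rose 2.70-fold against 6w+dox. A list of vesicle and granule membrane proteins had 22 of 24 tested, with 0 called for 12w+dox against 6w+dox and 1 higher and 2 lower in each comparison of 12w-res. *Ptprn*, a dense-core granule membrane protein, rose 2.19-fold against 12w+dox, and *Sv2b*, a vesicle glycoprotein, rose 2.35-fold against 6w+dox. *Synpr*, synaptoporin, averaged 2.92 FPM in the 12w-res mice, below the 11.4 of the 6w+dox and the 9.29 of the 12w+dox mice, though it overlapped the latter, and *Syngr4* averaged 0.16, against 1.37 and 1.29. The exocyst (11 of 13 tested), the active zone scaffold (11 of 12) and the Rab effectors and regulators (18 of 19) had 0 genes called in these comparisons. In the short-term comparisons 0 genes of the 5 lists were called.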

How the data were processed

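RNA-seq of pituitaries of 25 sh*Rb* mice was analysed from 2 deposited tables, 1 for each experiment. The authors aligned paired-end reads to mm10 with STAR and limited the tables to RefSeq genes that reached 10 reads in over 50% of one group. The counting tool and strand setting are not given in the sources used here. The deposited values are a signal, FPM, that the authors scaled with DESeq2 size factors. Every value was a whole multiple of 1 read of its library within 0.1 read, so reads could be recovered. For the short-term experiment, 68.8 to 75.0% of reads were on lines that name no gene, which were left out. Per-sample columns left unused numbered 0.

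The main test was limma 3.58.1 (R 4.3.3, trended prior variance) on log2(FPM + 0.5), with all groups of an experiment in one fit and Benjamini-Hochberg adjustment over all genes tested. Groups came from the sample labels. The alternatives used edgeR 4.0.16 or DESeq2 1.42.0 on recovered reads, pseudocounts of 0.1 and 1, total-read or TMM scaling, other filters on low reads, no minimum fold change, fits to the compared pair of groups, a term for replicate number or sex, females alone, and each mouse left out. Single genes were also compared by exact two-sided permutation of mean log2 values. The limma script was tested on simulated data.

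Genes were named if they were members called in any comparison or 1 of 16 core genes of granule release, and values of some further core genes are not reported here. Other genes were named after their values were seen. Members and lists were chosen with earlier results of these data known. All 72 members matched RefSeq symbols (GRCm38.p6), which gave the promoters, and transcript lengths came from GENCODE. Reads of near-identical relatives and of overlapping or antisense genes may be split by the counting. Mice of one group differed by more than counting noise in every pair (chi-square per degree of freedom 3.93 to 222).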

Additional observations from a re-analysis of the deposited data

Results flagged for a closer look

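In 7 of 83 groups of 4 or 5 mice that were examined, 1 mouse stood far from the others of its group, by Dixon's criterion at the 95% level, which chance meets in about 1 of 20 groups. *Rab27a* was at 341 FPM in 12w-res replicate 4 and at 272 to 286 in the others. *Snap25* was at 288 FPM in 12w+dox replicate 2 and at 301 to 302 in the others. *Syt4* was at 335 FPM in 12w+dox replicate 3 and at 409 to 415 in the others. *Syt16* was at 1.82 FPM in 12w-res replicate 5 and at 4.43 to 5.07 in the others. *Syt2* was at 0.0528 FPM, 1 read, in 12w-res replicate 2 and at 0 in the others. *Rims4* was at 1.74 FPM in 1d -dox replicate 2 and at 0.877 to 1.02 in the others. *Unc13c* was at 4.96 FPM in 1d -dox replicate 3 and at 2.29 to 2.62 in the others.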

How the results depend on the processing

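For 12w-res against 12w+dox, 9 members were called, and 15 with a pseudocount of 0.1, 25 with total-read scaling and 33 with no minimum fold change, and 7 to 13 when single mice were left out. With no minimum fold change, 45.8% of members and 37.8% of all genes passed. Total-read scaling turned *Rab3a* to -0.13, *Syt4* to -0.16, *Unc13a* to -0.46 and *Vamp8* to -0.15. For 12w+dox against 6w+dox, 6 were called, and 16 with no minimum fold change (22.2%, against 22.4% of all genes), 3 with sex in the fit and 1 in females only, and 3 to 6 when single mice were left out. For 12w-res against 6w+dox, 5 were called, and 8 by edgeR, 8 by DESeq2, 8 with a pseudocount of 0.1 and 20 with no minimum fold change (27.8%, against 33.8% of all genes), and 4 to 8 when single mice were left out. Over all genes, edgeR called 1043 higher and 1055 lower here, and DESeq2 called 1086 and 1112. For 3d -dox against 16w +dox, DESeq2 called 1 and the main test 0, and leaving out single mice gave 0 in the short-term comparisons. The causes were not tested, and the counts over all genes under the remaining settings are not reported here. *Cplx2*, *Cadps2* and *Rims3* were called for 12w-res against 12w+dox under all 24 alternatives.

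Same-numbered mice of different groups had correlations of -0.21 to 0.24 between their deviations from the group means, so the numbers were not taken to pair them. With a replicate block, 4, 9 and 5 members were called in the 3 long-term comparisons and 0 in the short-term ones. Low reads limit *Syt2*, *Syt6*, *Cplx3* and *Rims4*, and in the short-term experiment 3 against 3 mice allow no exact p under 0.1.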

Other observations

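Whether the change from 12w+dox to 12w-res differed between males and females was tested with an interaction term in limma. No member passed an adjusted p under 0.05, where 5 of 15315 genes did, and 2 of 72 members passed an unadjusted p under 0.05. *Cplx1* had a log2 fold change of -1.69 in males and -0.40 in females (unadjusted p = 0.0213), and *Rab3b* had 0.49 in males and -0.44 in females (unadjusted p = 0.0362). Each sex had 2 or 3 mice in a group.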
